A study of Mus musculus with 21 samples.

Results

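The 36 genes described here work in the endoplasmic reticulum (ER), where secreted and membrane proteins enter, fold and are cleared. They were taken by gene symbol from a count table of 47729 genes, and fall into 16 folding genes (chaperones, co-chaperones and folding enzymes), 5 translocon genes (the channel that brings proteins into the ER), 11 genes of ER-associated degradation (ERAD) and 4 sensor genes of the unfolded protein response. The group called sensor genes holds the sensors Ern1, Atf6 and Eif2ak3, and also Xbp1, which encodes a transcription factor acting after them. Of the 36 genes, 35 were matched by symbol and 1, Selenos, by gene ID, because the table carries it as Vimp. All 36 passed the filter on low counts in both experiments.

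RNA had been sequenced from mouse bone marrow hematopoietic stem cells (HSCs), sorted as CD48-negative, CD150-positive cells of the LSK (lineage-negative, Sca-1-positive, Kit-positive) fraction, in 21 libraries that form 7 groups of 3. In the treatment experiment, mice with the genotype label Mx1-Cre; Atgfl/fl, whose titles read Atg5-/-, and wild-type (WT) mice received either bortezomib or DMSO. Bortezomib blocks the proteasome, the protease complex that also destroys proteins withdrawn from the ER. It was given at 10 mg/kg into the retro-orbital sinus, at 48 h and again at 24 h ahead of analysis, and control mice had 10% DMSO by the same route and times. Mx1-Cre is driven by an interferon-inducible promoter that is active in many tissues, and the labels name no inducing treatment. Atg5 is needed for autophagy. The groups were thus KO-labelled bortezomib, KO-labelled DMSO, WT bortezomib and WT DMSO. The other 9 libraries came from untreated mice of the RFP-EGFP-LC3 genotype, a reporter of autophagic vesicles, sorted as RFP single positive, RFP GFP double positive and RFP GFP double negative HSCs. The labels do not say whether replicates came from separate mice or from pools, so p-values measure the spread between these libraries only.

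Proteins enter the ER through the Sec61 channel and are folded by chaperones such as BiP (encoded by Hspa5), by lectins that hold glycoproteins and by enzymes that form disulfide bonds. Molecules that fail to fold are recognised by ERAD lectins, ubiquitinated by ligases such as HRD1 (encoded by Syvn1), pulled into the cytosol and destroyed by the proteasome. When unfolded proteins build up, the sensors IRE1 (Ern1), ATF6 (Atf6) and PERK (Eif2ak3) raise chaperone and ERAD genes through the transcription factors XBP1 and cleaved ATF6, and lower translation. HSCs are known for a low rate of protein synthesis.

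A known route from these sensors to the genes is the ER stress response element (ERSE: the letters CCAAT and CCACG with any 9 bases between them), searched on both strands in the promoter windows of RefSeq (GRCm38.p6), which run from 250 bases before to 50 bases after a gene's start. A window was held for 30 of the 36 genes, and none for Hyou1, Manf, Sec61a1, Ssr2, Derl1 and Atf6. An ERSE stood in 9 of the 30 (30.0%), against 37 of 27025 genes (0.137%), and 1 of the 9, Hsp90b1, had 2. The 36 genes were chosen for this response, so their higher share of such elements is not a result of these data. The elements are shown because they sit in folding and in ERAD genes, which moved differently. Each is written 5′ to 3′ in the direction CCAAT to CCACG, and capitals mark those blocks.
Hspa5 (chr2:34772025-34772043, same strand as the gene): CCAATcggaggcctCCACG
Hsp90b1 (chr10:86705533-86705551, opposite strand to the gene): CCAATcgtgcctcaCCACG
Hsp90b1 (chr10:86705638-86705656, same strand as the gene): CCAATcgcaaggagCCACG
Dnajc3 (chr14:118937827-118937845, same strand as the gene): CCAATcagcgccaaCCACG
Calr (chr8:84847075-84847093, opposite strand to the gene): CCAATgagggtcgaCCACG
Canx (chr11:50325800-50325818, same strand as the gene): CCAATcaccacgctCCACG
Pdia6 (chr12:17266491-17266509, same strand as the gene): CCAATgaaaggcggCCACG
Creld2 (chr15:88819520-88819538, opposite strand to the gene): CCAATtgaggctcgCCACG
Syvn1 (chr19:6046532-6046550, same strand as the gene): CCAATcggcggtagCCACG
Derl3 (chr10:75893242-75893260, opposite strand to the gene): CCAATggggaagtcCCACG
The same 19 bases of Hspa5 and Syvn1, the principal ER chaperone and the ERAD ligase, are shown within their windows, since these genes moved in opposite directions between genotypes. Capitals mark the ERSE.
Hspa5 window (chr2:34771840-34772139, plus strand): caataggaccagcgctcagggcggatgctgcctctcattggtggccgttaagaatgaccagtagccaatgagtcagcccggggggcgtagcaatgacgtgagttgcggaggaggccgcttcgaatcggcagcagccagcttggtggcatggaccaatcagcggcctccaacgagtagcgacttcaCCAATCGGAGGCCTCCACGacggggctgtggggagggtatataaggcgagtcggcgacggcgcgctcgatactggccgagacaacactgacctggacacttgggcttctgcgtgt
Syvn1 window (chr19:6046326-6046625, plus strand): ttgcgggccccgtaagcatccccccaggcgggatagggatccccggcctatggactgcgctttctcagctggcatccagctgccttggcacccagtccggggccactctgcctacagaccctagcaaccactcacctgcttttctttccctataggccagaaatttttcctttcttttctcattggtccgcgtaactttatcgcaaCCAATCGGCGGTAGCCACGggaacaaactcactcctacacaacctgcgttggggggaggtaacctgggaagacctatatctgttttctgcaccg
The Hspa5 element ends 47 bases before the RefSeq start and the Syvn1 element 26 bases before its start. ERSE-II (ATTGG and CCACG with any 1 base between them) was found in Dnajb11 and Herpud1 (2 of 30, 6.67%, against 0.0444% of genes). Herpud1 also held the amino acid response letters TGATGCAA (1 of 30, 3.33%, against 1.03% of genes), and the XBP1-type letters TGACGTGG stood in 0 of the 30 windows (0.714% of genes). The matches are letters in a window and not measured binding sites.

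Library totals were 15005500 to 31481691 counts, so that 3 counts corresponded to 0.0953 to 0.2 CPM, the count scaled to a common library size. This was done within each experiment, so CPM cannot be compared across the experiments. All 14 HSC markers averaged above 1 CPM in every group. Atg5 averaged 111 ± 27.2 CPM in KO-labelled bortezomib, 112 ± 3.77 in KO-labelled DMSO, 103 ± 31.6 in WT bortezomib and 56.5 ± 17.4 in WT DMSO libraries (SD, n = 3 each). A count over the whole gene does not show whether the floxed part was deleted, and the genotype is therefore given as labelled. On principal component 3, KO-labelled bortezomib 3, WT bortezomib 3 and WT DMSO 3 stood apart from the other treatment libraries. The share of Xist in Xist plus Ddx3y counts, a marker of female against male RNA, was 0% to 100% in KO-labelled bortezomib, 0.234% to 0.987% in KO-labelled DMSO, 31.8% to 90.3% in WT bortezomib and 60% to 99.2% in WT DMSO libraries. WT DMSO 3 (60%) and the WT bortezomib libraries thus held RNA of both sexes. Whether this came from pooled mice was not tested.

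Per kilobase of exon, 4 folding genes, Pdia3, Calr, P4hb and Canx, had the highest levels of the set in WT DMSO HSCs, and 3 of the 4 sensors were among the lowest. Other folding genes lay far down the order, with Hyou1 at 3.81 ± 1.64 and Fkbp14 at 1.63 ± 0.381 CPM per kb (SD, n = 3). Pdia3 stood at 321 ± 24.2, Calr at 272 ± 26.8 and P4hb at 231 ± 19.9 CPM per kb (SD, n = 3), and the ranges of neighbours in this order overlapped. P4hb lay above Canx, the next gene, with no overlap. Hspa5 was the sixth at 136 ± 9.01 CPM per kb. Of the sensor genes, Xbp1 had 76.3 ± 3.64, while Ern1 (3.68 ± 1.42), Eif2ak3 (3.29 ± 1.09) and Atf6 (2.31 ± 1.04 CPM per kb) did not differ beyond their ranges. Derl3, a derlin best known from secretory cells, was the lowest at 0.743 ± 0.358 CPM per kb.

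Most genes that rose with bortezomib in WT HSCs were folding or translocon genes. The genes called lower in KO-labelled than in WT HSCs under bortezomib were also folding or translocon genes, and those called higher there belonged to ERAD and the sensors. Over the 36 genes, the share called higher in this comparison was 16.7%, near the 17.2% of all genes. When offsets for length and GC were fitted, 2 ERAD genes, Edem1 and Derl2, were called lower there as well. Calls were made with edgeR's quasi-likelihood test where the p adjusted over all tested genes (Benjamini-Hochberg) was below 0.05. In WT bortezomib against WT DMSO, 12 of the 36 were called (33.3%, against 15.5% of the 16149 genes tested), 10 of them higher (7.97% of all genes) and 2 lower (7.56%). The 10 were 5 of 16 folding, 4 of 5 translocon and 1 of 11 ERAD genes, and the 2 were 1 ERAD and 1 sensor gene. In KO-labelled bortezomib against KO-labelled DMSO, 3 were called (8.33%, against 3.63% of all genes), all higher (2.02% of all genes were higher and 1.61% lower), of which 2 were ERAD genes and 1 was Xbp1. The count in WT HSCs fell to 3 when WT bortezomib 1 or WT DMSO 2 was left out, to 4 when WT DMSO 1 was, and to 7 when WT bortezomib 2 was. That in KO-labelled HSCs was 0 without KO-labelled bortezomib 2 or KO-labelled DMSO 1 or 3, 1 without KO-labelled bortezomib 1 or KO-labelled DMSO 2, and 5 without KO-labelled bortezomib 3, and when only these 6 libraries were fitted it was 0.

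In KO-labelled bortezomib against WT bortezomib, 19 of the 36 were called (52.8%, against 32.4% of all genes), with 6 higher (16.7%, against 17.2%) and 13 lower (36.1%, against 15.3%). The 13 were 9 of 16 folding and 4 of 5 translocon genes, and the 6 were 4 of 11 ERAD and 2 of 4 sensor genes. Offsets for length and GC content made the calls 5 higher and 19 lower, and ERAD then held calls in both directions, with Edem3, Sel1l, Syvn1 and Os9 higher and Edem1 (-0.66, edgeR adjusted p = 0.00884) and Derl2 (-0.61, adjusted p = 0.0158) lower. The median log2 fold change was -0.68 for folding, -0.92 for translocon, 0.03 for ERAD and 1.07 for sensor genes, beside 0.08 for all genes. In WT bortezomib against WT DMSO these medians were 0.44, 0.63, 0.14 and -0.55, beside -0.04 for all genes. The sensor group was mixed there, with Xbp1 at 0.685 and Ern1, Eif2ak3 and Atf6 at -1.3, -0.92 and -0.185. Without WT bortezomib 3 the ERAD median of 0.14 was -0.16 and the sensor median of -0.55 was -0.20. The comparisons share the WT bortezomib libraries, so their opposite signs are not independent. In these bulk libraries, fewer cells of a kind and less RNA per cell cannot be told apart.

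**Figure D1:**
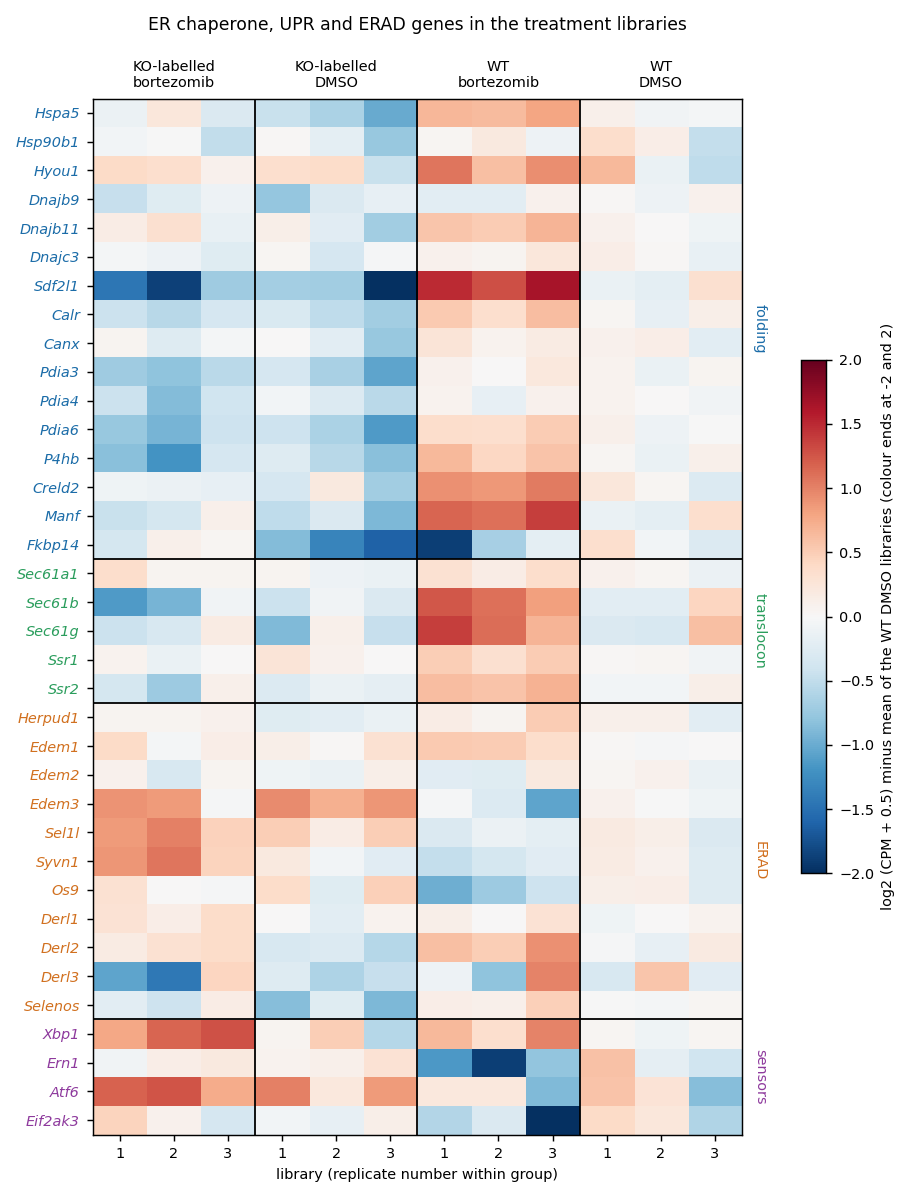
Each row is 1 of the 36 genes and each column 1 of the 12 treatment libraries, with colour for log2 (CPM + 0.5) minus the mean of the WT DMSO libraries. The WT bortezomib columns are red across Sdf2l1, Manf, Creld2 and the translocon rows Sec61b and Sec61g, and blue for Ern1, while KO-labelled bortezomib columns are red for Sel1l, Syvn1, Xbp1 and Atf6.

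The folding genes gave the most calls. BiP, encoded by Hspa5 at chr2:34771970-34777547 (plus strand, GRCm38), binds unfolded chains and holds the sensors inactive. Hspa5 had 531, 673 and 472 CPM in KO-labelled bortezomib, 423, 369 and 286 in KO-labelled DMSO, 911, 893 and 996 in WT bortezomib and 619, 547 and 559.8 in WT DMSO libraries. All WT bortezomib libraries lay above every other library of the experiment, and KO-labelled DMSO below every other. Hspa5 rose with bortezomib in WT HSCs (edgeR log2 fold change 0.70 ± 0.18, ± SE here and below, adjusted p = 0.0164) and was lower in KO-labelled than in WT HSCs under bortezomib (-0.74 ± 0.18, adjusted p = 0.0047). Within KO-labelled HSCs the bortezomib and DMSO libraries did not overlap, with a log2 fold change of 0.64 ± 0.18 that missed the threshold (adjusted p = 0.0556). Hsp90b1, the ER member of the Hsp90 chaperones, had 289.8, 302 and 215 CPM in KO-labelled bortezomib, 306, 263 and 179 in KO-labelled DMSO, 312, 346 and 282 in WT bortezomib and 386, 331 and 217 in WT DMSO libraries. These groups overlapped throughout, and no comparison called Hsp90b1.

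Sdf2l1, which keeps the BiP cycle running together with the J-domain protein Dnajb11, gave the largest fold change among the 36 between genotypes under bortezomib and with bortezomib in WT HSCs. It is a short gene at chr16:17130138-17132383 (minus strand). Sdf2l1 had 27.8, 20.6 and 46.6 CPM in KO-labelled bortezomib, 47.1, 47.1 and 13.3 in KO-labelled DMSO, 216, 187 and 241 in WT bortezomib and 69.3, 66.6 and 95.8 in WT DMSO libraries. The lowest WT bortezomib library held more than 3 times the CPM of the highest KO-labelled library of either treatment, and both KO-labelled groups overlapped each other. Its log2 fold change was -2.76 ± 0.39 in KO-labelled against WT HSCs under bortezomib (adjusted p = 2.09e-04) and 1.47 ± 0.37 with bortezomib in WT HSCs (adjusted p = 0.0163). Manf, an ER protein that binds BiP and can be secreted, had 83.9, 89.8 and 123 CPM in KO-labelled bortezomib, 80.3, 93.7 and 60.99 in KO-labelled DMSO, 258, 246 and 299 in WT bortezomib and 104, 99.5 and 145 in WT DMSO libraries. As for Sdf2l1, WT bortezomib stood alone above the other 3 groups. Manf rose with bortezomib in WT HSCs by 1.20 ± 0.21 on the log2 scale (adjusted p = 0.00379) and was lower in KO-labelled HSCs under bortezomib by a log2 fold change of -1.44 ± 0.21 (adjusted p = 2.33e-04).

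Creld2, an ER-stress-inducible protein with disulfide isomerase activity, showed the same order. It had 40.1, 39.1 and 37.96 CPM in KO-labelled bortezomib, 33.7, 49.1 and 26.1 in KO-labelled DMSO, 80.5, 78.2 and 87.7 in WT bortezomib and 49.7, 43.98 and 35.3 in WT DMSO libraries. WT bortezomib was the only group clear of the rest. The log2 fold changes were -1.07 ± 0.21 between genotypes under bortezomib (edgeR adjusted p = 0.00157) and 0.93 ± 0.21 with bortezomib in WT HSCs (edgeR adjusted p = 0.011). Calr, the soluble lectin chaperone, had 582, 533 and 616 CPM in KO-labelled bortezomib, 633, 551 and 482 in KO-labelled DMSO, 1126, 982 and 1192 in WT bortezomib and 802, 699 and 850.0 in WT DMSO libraries. Its KO-labelled libraries all lay below its WT libraries. Calr was lower in KO-labelled HSCs under bortezomib (-0.93 ± 0.16, adjusted p = 5.37e-04), and its rise in WT HSCs was small (0.49 ± 0.16, adjusted p = 0.044). A Calr pseudogene is listed in the table, and how reads were shared between them is not given in the sources used here.

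The 4 protein disulfide isomerases were called between genotypes under bortezomib and, without the offsets, not with bortezomib within either genotype. P4hb, the founding member, averaged 393 ± 119 CPM in KO-labelled bortezomib and 966 ± 78.2 in WT bortezomib libraries (SD, n = 3 each; log2 fold change -1.30 ± 0.21, edgeR adjusted p = 4.01e-04). Pdia6 averaged 305 ± 56.8 and 649 ± 41.5 CPM in the same order (-1.09 ± 0.19, adjusted p = 6.31e-04). Pdia3, which works with the lectin chaperones, averaged 627 ± 59.8 CPM in KO-labelled bortezomib and 1080.0 ± 79.5 CPM in WT bortezomib libraries (-0.78 ± 0.18, adjusted p = 0.00343). The smallest difference of the 4 was that of Pdia4, with 135 ± 23.2 CPM in KO-labelled bortezomib and 198 ± 18.02 CPM in WT bortezomib libraries (-0.55 ± 0.17, adjusted p = 0.0209). No library of these groups overlapped for any of the 4.

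Of the remaining folding genes, the J-domain co-chaperones Dnajb9, Dnajb11 and Dnajc3, the exchange factor Hyou1, the membrane lectin Canx and Hsp90b1 were called in no comparison without the offsets, and Fkbp14 only in the interaction described below. Their log2 fold changes under bortezomib between genotypes ran from -0.61 for Hyou1 to -0.16 for Dnajb9, leaving out Fkbp14. Several calls were lost when 1 library was left out. In WT bortezomib against WT DMSO, the call was lost for Hspa5 without WT bortezomib library 1 or WT DMSO library 2 (adjusted p = 0.0588 to 0.0786), Sdf2l1 without WT bortezomib library 1 or WT DMSO library 1 or 2 (adjusted p = 0.0571 to 0.0788) and Calr without KO-labelled bortezomib library 1, KO-labelled DMSO library 2, WT bortezomib library 1, 2 or 3 or WT DMSO library 1 or 2 (adjusted p = 0.0534 to 0.187). Between genotypes under bortezomib it was lost for Pdia4 without KO-labelled bortezomib library 2 or WT bortezomib library 1 or 3 (adjusted p = 0.065 to 0.103), while the other 8 folding calls, and those of Creld2 and Manf in WT HSCs, held under all 21 alternatives. The WT call of Calr was also lost with no filter on low counts (adjusted p = 0.0944) and with the Xist share as a covariate (adjusted p = 0.0604).

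Markers of other cell types moved with some of these comparisons, and their part in the results was not tested. The 10 plasma cell markers summed to 13.01 to 39.3 CPM in KO-labelled bortezomib (9 detected, Pou2af1 at 0), 38.2 to 58.4 in KO-labelled DMSO (9 detected), 140.2 to 159 in WT bortezomib (8 detected, Igkc and Pou2af1 at 0) and 52.03 to 62.4 in WT DMSO libraries (9 detected). Without Fkbp11, itself an ER folding enzyme, the sums were 7.198 to 9.06 CPM in KO-labelled bortezomib, 19.98 to 39.5 in KO-labelled DMSO, 28.3 to 31.3 in WT bortezomib and 18.25 to 18.9 in WT DMSO libraries. The erythroid list, dominated by Car2, summed to 996 to 1164 CPM in KO-labelled bortezomib, 1962 to 2052 in WT bortezomib and 2154 to 2422 CPM in WT DMSO libraries. Without Car2 the sums were 45.3 to 66.7 CPM in KO-labelled bortezomib, 78.2 to 204 in KO-labelled DMSO, 167 to 206 in WT bortezomib and 62.9 to 86.3 in WT DMSO libraries, so WT bortezomib lay above WT DMSO and KO-labelled bortezomib with no overlap. The T and NK cell list, with Cd3e, Cd3g, Gzma and Ncr1 at 0 in every group, summed to 61.7 to 132 CPM in KO-labelled bortezomib, 164 to 232 in WT bortezomib and 105 to 111 in WT DMSO libraries. Without Nkg7, its leading gene, it summed to 20.6 to 21.2, 27.9 to 32.4 and 27.3 to 39.0 CPM in that order, and the WT groups then overlapped. The monocyte and macrophage list overlapped between KO-labelled and WT bortezomib libraries (285 to 663 and 625 to 864 CPM). Without Lyz2 it summed to 79.3 to 98.3 CPM in KO-labelled bortezomib, 116.5 to 188 in WT bortezomib and 65.7 to 98.1 in WT DMSO libraries, and WT bortezomib lay above both with no overlap. The B cell (Ms4a1, Pax5 and Igll1 at 0 in every group), neutrophil, megakaryocyte and endothelial and stromal lists overlapped between KO-labelled and WT bortezomib libraries. The HSC list summed to 4000 to 4387 CPM in KO-labelled bortezomib, 4587 to 5606 in KO-labelled DMSO, 3141 to 3638 in WT bortezomib and 4914 to 5560 in WT DMSO libraries. The mitochondrial share of counts was 0.847% to 1.16% in WT bortezomib and 1.2% to 1.69% in WT DMSO libraries.

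**Figure D2:**
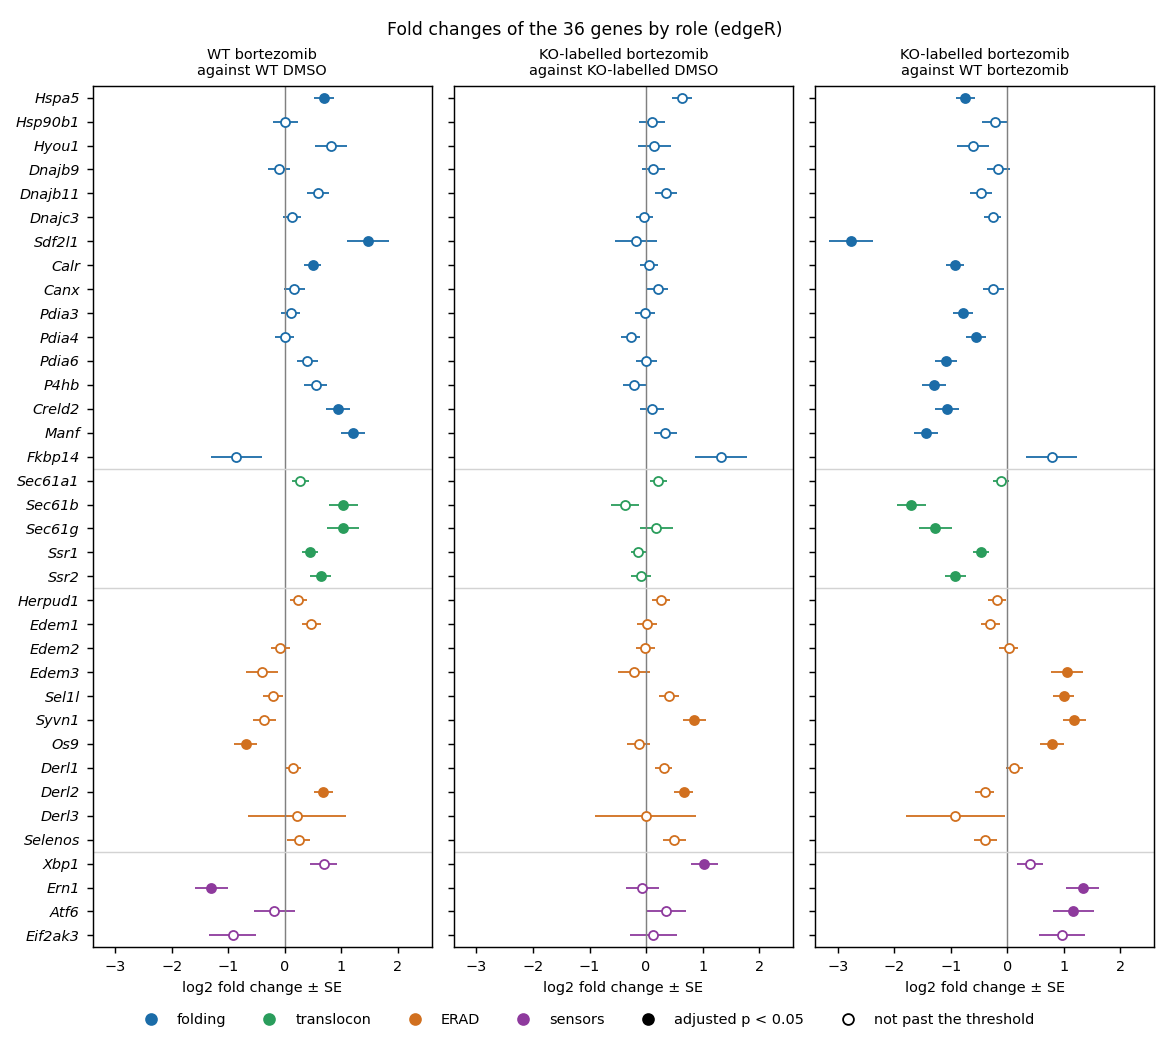
Log2 fold changes of the 36 genes with their SE (edgeR), one panel per comparison, coloured by role and filled where the adjusted p was below 0.05. The filled folding and translocon points lie right of 0 in WT bortezomib against WT DMSO and left of it in KO-labelled against WT bortezomib, where Sdf2l1 reaches -2.76.

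All 5 translocon genes had log2 fold changes above 0 with bortezomib in WT HSCs (range 0.27 to 1.03) and below 0 in KO-labelled against WT HSCs under bortezomib (range -1.70 to -0.11). Sec61b, the small tail-anchored subunit of the channel, is at chr4:47474658-47483242 (plus strand). It had 80.4, 92.3 and 169 CPM in KO-labelled bortezomib, 131, 167 and 144 in KO-labelled DMSO, 417, 379 and 312 in WT bortezomib and 153, 152 and 238 in WT DMSO libraries. All WT bortezomib libraries exceeded all others, and KO-labelled bortezomib overlapped KO-labelled DMSO. Sec61b rose with bortezomib in WT HSCs (1.03 ± 0.25, edgeR adjusted p = 0.015) and was lower between genotypes under bortezomib (-1.70 ± 0.26, adjusted p = 3.08e-04). Sec61g, the other small subunit, had 50.3, 53.8 and 75.6 CPM in KO-labelled bortezomib, 36.3, 73 and 49.1 in KO-labelled DMSO, 177, 148 and 109 in WT bortezomib and 55.5, 54.3 and 103 in WT DMSO libraries. WT bortezomib was again the highest group, although its lowest library was close to the highest WT DMSO one. The log2 fold changes of Sec61g were -1.27 ± 0.29 between genotypes under bortezomib (adjusted p = 0.00391) and 1.03 ± 0.29 with bortezomib in WT HSCs (adjusted p = 0.027).

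Ssr1 and Ssr2 encode subunits of the translocon-associated protein complex, which helps signal sequences enter the channel. Ssr2 had 167, 128 and 229 CPM in KO-labelled bortezomib, 177, 194 and 188 in KO-labelled DMSO, 328, 317 and 344 in WT bortezomib and 205, 205 and 230.4 in WT DMSO libraries. Ssr1 had 336, 291 and 323 CPM in KO-labelled bortezomib, 382, 339 and 323 in KO-labelled DMSO, 453, 402 and 455 in WT bortezomib and 326, 329.8 and 306 in WT DMSO libraries. For both genes WT bortezomib lay above every other library. In KO-labelled against WT HSCs under bortezomib, Ssr2 was lower by a log2 fold change of -0.92 ± 0.18 (edgeR adjusted p = 0.00152) and Ssr1 by -0.46 ± 0.14 (adjusted p = 0.0196). With bortezomib in WT HSCs, Ssr2 rose by 0.63 ± 0.18 (adjusted p = 0.029) and Ssr1 by 0.45 ± 0.14 (adjusted p = 0.0422). The channel subunit Sec61a1 was called in no comparison without the offsets, with 0.27 ± 0.15 with bortezomib in WT HSCs and -0.11 ± 0.15 between genotypes. In WT HSCs the call was lost for Sec61b without WT bortezomib library 1 or WT DMSO library 1 or 2 (adjusted p = 0.0703 to 0.0808), Sec61g without WT bortezomib library 1 or 2 or WT DMSO library 1 or 2 (adjusted p = 0.0702 to 0.127), Ssr1 without KO-labelled bortezomib library 1, KO-labelled DMSO library 1 or 2, WT bortezomib library 1, 2 or 3 or WT DMSO library 1, 2 or 3 (adjusted p = 0.0518 to 0.156) and Ssr2 without WT bortezomib library 1, 2 or 3 or WT DMSO library 1 or 2 (adjusted p = 0.0682 to 0.114). Between genotypes under bortezomib it was lost for Ssr1 without KO-labelled bortezomib library 2 or WT bortezomib library 1 or 3 (adjusted p = 0.0627 to 0.0788) and, for the same gene, with no filter on low counts (adjusted p = 0.0829) or only the 6 libraries compared (adjusted p = 0.0534). In WT HSCs, Ssr1 also lost its call with no filter (adjusted p = 0.14), and Sec61g (adjusted p = 0.0664) and Ssr2 (adjusted p = 0.058) did with the Xist share as a covariate.

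**Figure D3:**
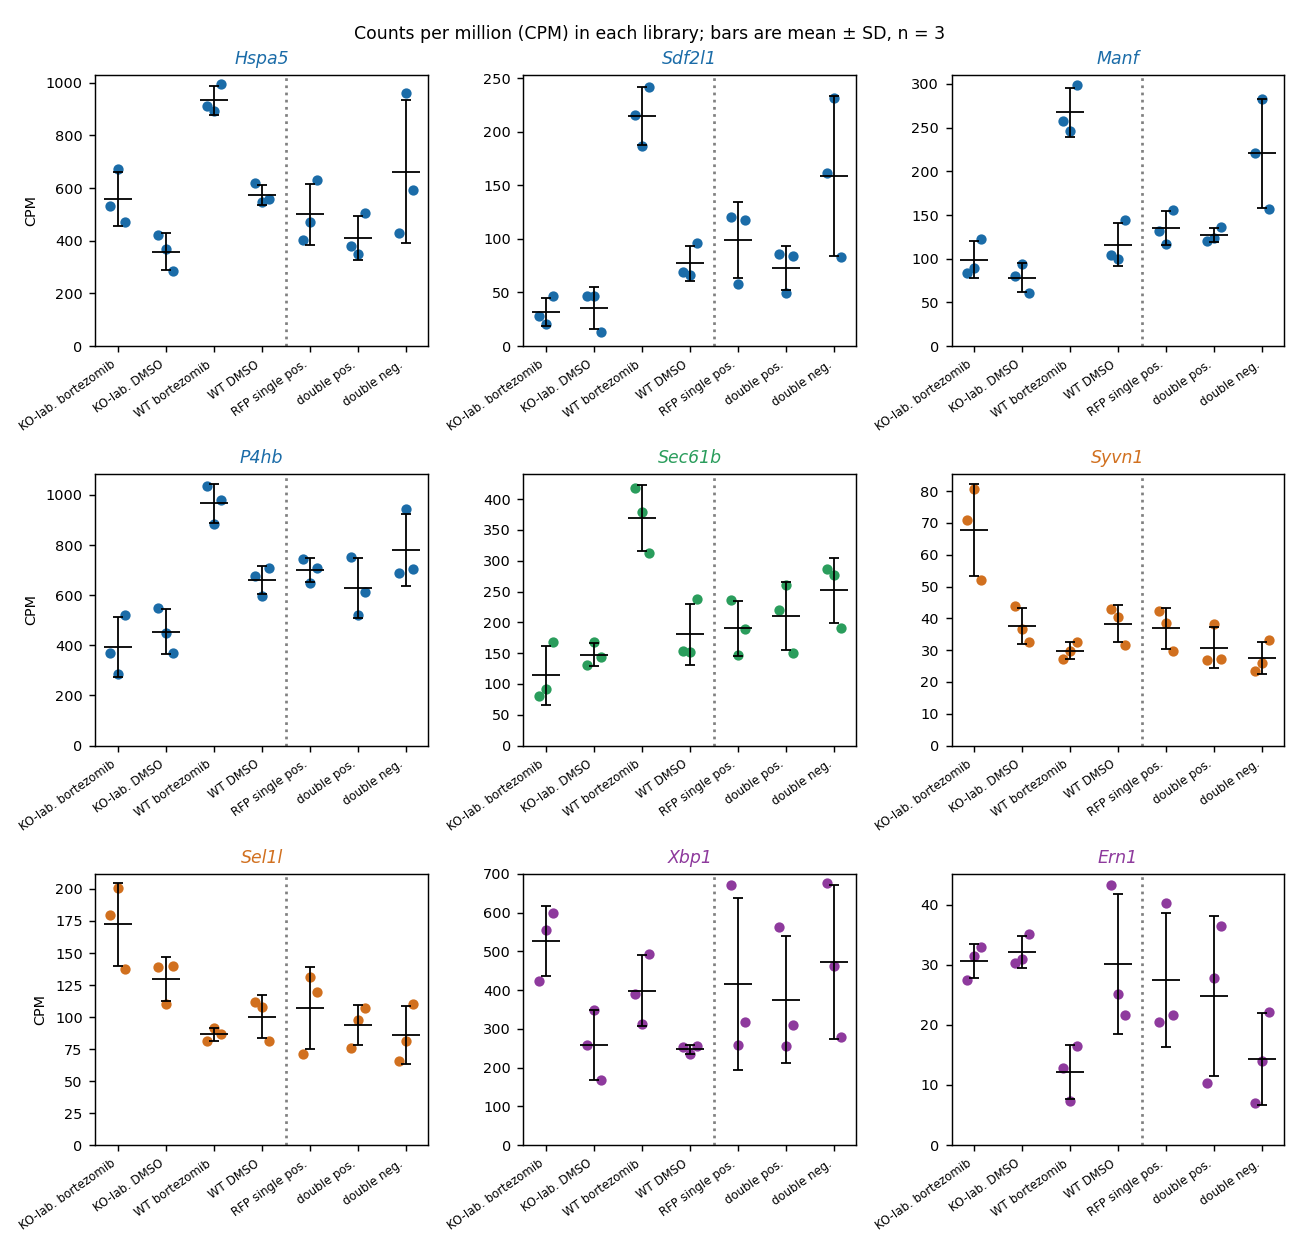
CPM in each library (points) with mean ± SD (n = 3) for 9 of the genes; treatment groups stand left of the dotted line and reporter groups right of it, scaled separately. Sdf2l1, Manf and Sec61b are highest in WT bortezomib, whereas Syvn1 and Sel1l are highest in KO-labelled bortezomib and Ern1 is lowest in WT bortezomib.

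Of the 11 ERAD genes, 4 were called higher and 0 lower between genotypes under bortezomib without the offsets, with 6 log2 fold changes above 0 and 5 below. Syvn1 encodes HRD1, the membrane ubiquitin ligase of the main ERAD complex, and lies at chr19:6046576-6053712 (plus strand). Syvn1 had 70.8, 80.6 and 51.9 CPM in KO-labelled bortezomib, 43.8, 36.5 and 32.5 in KO-labelled DMSO, 27.3, 29.8 and 32.5 in WT bortezomib and 42.9, 40.6 and 31.7 in WT DMSO libraries. KO-labelled bortezomib stood above all other libraries, and the other 3 groups lay between 27.3 and 43.8 CPM. Syvn1 was higher in KO-labelled bortezomib than in WT bortezomib (1.18 ± 0.21, edgeR adjusted p = 6.42e-04) and than in KO-labelled DMSO (0.85 ± 0.20, adjusted p = 0.0297). Sel1l, the adaptor that stabilises HRD1 and passes substrates to it, averaged 172 ± 32.4 CPM in KO-labelled bortezomib and 86.6 ± 5.05 CPM in WT bortezomib libraries (SD, n = 3 each), with no overlap (0.99 ± 0.18, adjusted p = 8.72e-04). Within KO-labelled HSCs the Sel1l groups overlapped (0.41 ± 0.18, adjusted p = 0.259).

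Os9 encodes a lectin that delivers trimmed glycoproteins to that complex. It had 225, 184 and 181 CPM in KO-labelled bortezomib, 236, 155 and 254 in KO-labelled DMSO, 93.3, 111 and 138 in WT bortezomib and 199, 200.3 and 154 in WT DMSO libraries. Here WT bortezomib was the lowest group, with no overlap with the rest. Os9 fell with bortezomib in WT HSCs (-0.70 ± 0.21, edgeR adjusted p = 0.0316) and was higher in KO-labelled than in WT HSCs under bortezomib (0.79 ± 0.21, adjusted p = 0.00818). Edem3, one of the mannosidases that mark misfolded glycoproteins, averaged 27.6 ± 8.99 CPM in KO-labelled bortezomib and 13.3 ± 4.59 CPM in WT bortezomib libraries (1.05 ± 0.29, adjusted p = 0.0109), but the groups overlapped by 1 library each.

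Derl2, a derlin of the retrotranslocation machinery, was the one gene called with bortezomib in both genotypes without the offsets, and with them Hspa5 and Xbp1 were so called too. It had 85.3, 94.9 and 99.03 CPM in KO-labelled bortezomib, 60.9, 63.3 and 51.4 in KO-labelled DMSO, 116, 108 and 145 in WT bortezomib and 74.8, 68.5 and 86.9 in WT DMSO libraries. Within each genotype the bortezomib libraries all exceeded the DMSO libraries. The rises were 0.67 ± 0.17 in KO-labelled HSCs (edgeR adjusted p = 0.0364) and 0.68 ± 0.17 in WT HSCs (adjusted p = 0.0148). Herpud1, Edem1, Edem2, Derl1, Derl3 and Selenos were called in no comparison without the offsets. Derl3 had 0.204 to 3.28 CPM in the treatment libraries, at its lowest close to the floor of 3 counts (0.0953 to 0.2 CPM).

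The ERAD calls in single-genotype comparisons rested on several libraries. In KO-labelled HSCs, the call was lost for Syvn1 without KO-labelled bortezomib library 1 or 2 or KO-labelled DMSO library 1, 2 or 3 (adjusted p = 0.0512 to 0.136) and Derl2 without KO-labelled bortezomib library 1 or 2, KO-labelled DMSO library 1, 2 or 3, WT bortezomib library 1 or 2 or WT DMSO library 1 or 2 (adjusted p = 0.0526 to 0.125). In WT HSCs it was lost for Os9 without WT bortezomib library 1 or 2 or WT DMSO library 1 or 2 (adjusted p = 0.0942 to 0.153) and Derl2 without WT bortezomib library 1 or 3 or WT DMSO library 1 or 2 (adjusted p = 0.0545 to 0.0872). Between genotypes under bortezomib it was lost for Os9 without WT bortezomib library 1 (adjusted p = 0.0527) and Edem3 without KO-labelled bortezomib library 1 (adjusted p = 0.0538), and held under all 21 alternatives for Sel1l and Syvn1. With the Xist share as a covariate the call was also lost for Syvn1 (adjusted p = 0.0725) and Derl2 (adjusted p = 0.0562) in KO-labelled HSCs and for Os9 (adjusted p = 0.0839) in WT HSCs, and with only the 6 libraries compared for Syvn1 (adjusted p = 0.0677) and Derl2 (adjusted p = 0.092) in KO-labelled HSCs.

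Among the sensors, Ern1 was low in WT bortezomib alone. Ern1 encodes IRE1, the kinase and RNase that splices Xbp1 mRNA, at chr11:106394650-106487852 (minus strand). It had 27.5, 31.5 and 32.98 CPM in KO-labelled bortezomib, 30.3, 30.9 and 35.1 in KO-labelled DMSO, 12.7, 7.398 and 16.4 in WT bortezomib and 43.3, 25.2 and 21.7 in WT DMSO libraries. The WT bortezomib libraries all lay below the other 9. Ern1 fell with bortezomib in WT HSCs (-1.30 ± 0.29, edgeR adjusted p = 0.0103) and was higher in KO-labelled than in WT HSCs under bortezomib (1.33 ± 0.29, adjusted p = 0.00301), while in KO-labelled HSCs the bortezomib and DMSO groups overlapped (-0.07 ± 0.29, adjusted p = 0.956).

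Xbp1 encodes the transcription factor that IRE1 activates. It had 424, 554 and 598 CPM in KO-labelled bortezomib, 258, 348 and 167 in KO-labelled DMSO, 389, 312 and 494 in WT bortezomib and 254, 234 and 255 in WT DMSO libraries. Bortezomib libraries were above DMSO libraries with no overlap in either genotype. The rise was called in KO-labelled HSCs (1.03 ± 0.24, edgeR adjusted p = 0.0232) and missed the threshold in WT HSCs (0.69 ± 0.24, adjusted p = 0.0589, and 0.0338 with length and GC offsets), and the difference between these effects was 0.34 ± 0.33 (adjusted p = 0.565). Counts per gene do not separate spliced from unspliced Xbp1.

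Atf6, whose cleaved form binds the ERSE, had 45.2, 47.5 and 33.1 CPM in KO-labelled bortezomib, 39.9, 22.7 and 35.7 in KO-labelled DMSO, 22.8, 22.8 and 10.4 in WT bortezomib and 29.3, 23.9 and 10.7 in WT DMSO libraries. KO-labelled bortezomib was above WT bortezomib in every library (1.17 ± 0.36, edgeR adjusted p = 0.0211). Eif2ak3, which encodes PERK, had 25.96, 20.2 and 14.98 CPM in KO-labelled bortezomib, 18.3, 16.9 and 20.6 in KO-labelled DMSO, 12.4, 15.5 and 3.43 in WT bortezomib and 24.9, 22.2 and 12.3 in WT DMSO libraries. WT bortezomib 3 was far below the other libraries, and no comparison called Eif2ak3 (0.96 ± 0.41, adjusted p = 0.0862 between genotypes under bortezomib). The call was lost for Ern1 without WT DMSO library 1 (adjusted p = 0.0599) in WT HSCs, for Xbp1 without KO-labelled bortezomib library 2 or KO-labelled DMSO library 1 or 3 (adjusted p = 0.0726 to 0.0855) in KO-labelled HSCs, and for Atf6 without KO-labelled bortezomib library 1 or 2 or WT bortezomib library 3 (adjusted p = 0.0602 to 0.0802) between genotypes. The Atf6 call was also lost when offsets for length and GC were added (adjusted p = 0.0712), and the Xbp1 call with only the 6 libraries compared (adjusted p = 0.0624).

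The bortezomib effect differed between genotypes for 3 of the 36 genes by the interaction test (8.33%, against 9.05% of all genes), 2 of them higher (4.35% of all genes) and 1 lower (4.71%). Syvn1 changed with bortezomib by 0.85 ± 0.20 in KO-labelled HSCs and by -0.36 ± 0.20 in WT HSCs, a difference of 1.21 ± 0.29 on the log2 scale (edgeR adjusted p = 0.0205). For Sec61b the effects were -0.37 ± 0.25 in KO-labelled and 1.03 ± 0.25 in WT HSCs, a difference of -1.40 ± 0.36 (adjusted p = 0.0266). Fkbp14, a prolyl isomerase that acts on collagen in other tissues, differed by 2.19 ± 0.65 (adjusted p = 0.046), with 5.11, 7.19 and 6.85 CPM in KO-labelled bortezomib, 3.41, 2.36 and 1.84 in KO-labelled DMSO, 1.44, 3.996 and 5.72 in WT bortezomib and 8.49, 6.37 and 5.396 in WT DMSO libraries, the lowest levels of the folding genes. Sdf2l1 (-1.65 ± 0.52, adjusted p = 0.0568), Ern1 (1.24 ± 0.41, adjusted p = 0.0683) and Manf (-0.87 ± 0.29, adjusted p = 0.0697) came next and missed the threshold. With length and GC offsets, Sdf2l1, Manf, Ssr1 and Ssr2 were called lower in addition (edgeR adjusted p = 0.0414, 0.0306, 0.0435 and 0.0432), and Ern1 was not (0.131). The calls with offsets were 2 higher and 5 lower, against 4.38% higher and 8.48% lower of all genes. The losses that follow concern the calls without offsets. The call was lost for Syvn1 without KO-labelled bortezomib library 2, KO-labelled DMSO library 2, WT bortezomib library 1 or 2 or WT DMSO library 1 or 2 (adjusted p = 0.0504 to 0.0672), Sec61b without KO-labelled bortezomib library 1 or 2, KO-labelled DMSO library 2, WT bortezomib library 1 or 2 or WT DMSO library 1 or 2 (adjusted p = 0.058 to 0.0803) and Fkbp14 without KO-labelled bortezomib library 1 or 2, KO-labelled DMSO library 1, 2 or 3, WT bortezomib library 1 or 2 or WT DMSO library 1 or 2 (adjusted p = 0.0617 to 0.114), and with the Xist share as a covariate for all 3 (adjusted p = 0.0918, 0.13 and 0.127 in that order). The count of 3 was 0 without KO-labelled bortezomib 2, KO-labelled DMSO 2, WT bortezomib 1 or 2, or WT DMSO 1 or 2, was 1 without KO-labelled bortezomib 1, and was 9, 5 and 6 without KO-labelled bortezomib 3, KO-labelled DMSO 3 and WT DMSO 3.

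Without bortezomib, 0 of the 36 genes were called in KO-labelled DMSO against WT DMSO by edgeR (0% of all genes, of which 1454 had an unadjusted p below 0.05). The Xist shares of these groups did not overlap, so that sex and genotype cannot be told apart here. At an unadjusted p below 0.05 there were 11, 1 higher and 10 lower, of which 8 were folding genes. DESeq2 and limma voom each called 3, Hspa5, Pdia3 and Pdia6, all lower, and edgeR with no filter on low counts called 2, Sdf2l1 and Pdia6, both lower. The shares of all genes called by these fits are not given here, so these counts have no background beside them. The log2 fold change was below 0 for 15 of the 16 folding genes (median -0.45) and for 27 of the 36, while 50.1% of all genes were above 0. Libraries of the groups did not overlap for 13 of the 36, and the share over all genes is not given here. Hspa5 had the smallest p (-0.68 ± 0.18, adjusted p = 0.219), followed by Pdia3 (-0.66 ± 0.18, adjusted p = 0.245) and Pdia6 (-0.70 ± 0.19, adjusted p = 0.245). Edem3 was the 1 gene higher at an unadjusted p below 0.05, at 0.86 ± 0.28 (adjusted p = 0.394). KO-labelled DMSO 3 was the lowest library of its group for 14 of the 16 folding genes.

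Across the 36 genes, the fold change between genotypes under bortezomib increased with transcript length. Spearman's rho with the longest transcript was 0.59 over the 36, beside 0.28 over 16091 genes, and in WT bortezomib against WT DMSO it was -0.49, beside -0.25. These are descriptions across genes of the same libraries, which are not independent points. Ern1 (6946 bases) and Atf6 (7246 bases) had longer transcripts than any folding gene, and Sec61b (723 bases) and Sdf2l1 (1108 bases) had the shortest of the set. With offsets fitted to length and GC content, rho between genotypes was 0.42 over the 36 and 0.03 over all genes. The median log2 fold change was then -0.89 for folding, -0.93 for translocon, -0.06 for ERAD and 0.68 for sensor genes. The 5 genes called higher and 19 called lower with the offsets stood beside 12% higher and 18.5% lower of all genes, whose median was -0.05 with and 0.08 without them. In WT bortezomib against WT DMSO the median of all genes was 0.07 with and -0.04 without the offsets, and the members' calls became 16 higher and 2 lower, against 10 higher and 2 lower without them (11.5% higher and 5.91% lower of all genes with the offsets). The genes then called in addition were Hyou1, Dnajb11, P4hb, Sec61a1, Edem1 and Xbp1, all higher. Ssr1, with the longest transcript of the set at 9333 bases, was lower both with the offsets (log2 fold change -0.93, edgeR adjusted p = 9.16e-04) and without.

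**Figure D4:**
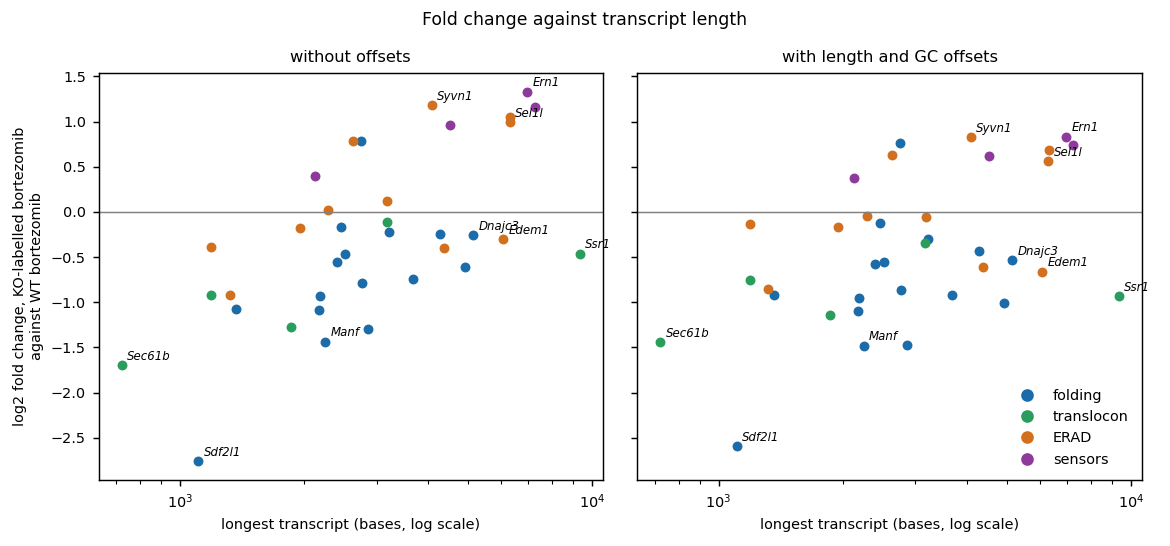
Log2 fold change of KO-labelled against WT bortezomib (vertical) against the longest annotated transcript in bases (log scale) for the 36 genes, without offsets at left and with length and GC offsets at right. Sdf2l1 is the lowest point in both panels, and Syvn1, Sel1l and Ern1 lie above 0 in both.

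Calls in both directions occurred with and without an ERSE in the window. In KO-labelled against WT bortezomib the 9 genes with an ERSE had 1 call higher and 4 lower (median log2 fold change -0.74), and the 21 without one had 4 higher and 7 lower (median -0.30). With bortezomib in WT HSCs the medians were 0.21 with an ERSE and 0.24 without. Sdf2l1, which changed most, and the translocon genes with a window held none, while Hspa5 and Syvn1, whose windows are shown above, went to opposite sides.

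A further 121 ER genes were grouped in the same way, and 118 passed the filter. Whether the calls among them hold without single libraries was not tested. Among 31 other genes of translocation and glycosylation, 19 were lower and 4 higher in KO-labelled against WT HSCs under bortezomib (61.3% and 12.9%, against 15.3% and 17.2% of all genes), and 11 were higher and 1 lower with bortezomib in WT HSCs (35.5% and 3.23%, against 7.97% and 7.56%). Ssr4, another translocon-associated subunit, averaged 449 ± 60.6 CPM in WT bortezomib and 204 ± 52.6 CPM in WT DMSO libraries (1.14 ± 0.20, edgeR adjusted p = 0.00405). Of 33 other folding genes, 6 were higher and 10 lower between genotypes under bortezomib (18.2% and 30.3%, against 17.2% and 15.3% of all genes), so the higher share was near the background. The lower ones were led by the prolyl isomerases Fkbp2 (31.3 ± 9.37 CPM in KO-labelled bortezomib, 128 ± 15.7 in WT bortezomib; -2.03 ± 0.24, adjusted p = 1.07e-04) and Fkbp11 (16.2 ± 12.7 and 119.6 ± 10.4 CPM in the same order; -2.87 ± 0.40, adjusted p = 2.09e-04). The bortezomib effect on Fkbp2 also differed between genotypes (-1.43 ± 0.32, adjusted p = 0.0166).

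Of 32 other ERAD genes, 4 rose with bortezomib in KO-labelled HSCs (12.5%, against 2.02% of all genes). One of the 4 was the ATPase Vcp, which extracts ERAD substrates, at 642 ± 106 CPM in KO-labelled bortezomib and 373 ± 41.95 CPM in KO-labelled DMSO libraries (0.78 ± 0.17, edgeR adjusted p = 0.0197). Its cofactors Ufd1l (1.26 ± 0.20, adjusted p = 0.00255) and Nploc4 (1.58 ± 0.27, adjusted p = 0.0038) rose too, as did the folding-list gene Sumf2 (1.15 ± 0.19, adjusted p = 0.00278). The fourth, Ubxn4, an ER-membrane adaptor of Vcp, rose (0.86 ± 0.19, adjusted p = 0.0199) and had a bortezomib effect that was larger in KO-labelled than in WT HSCs (1.19 ± 0.27, adjusted p = 0.0171). In KO-labelled against WT HSCs under bortezomib, 8 of the 32 were higher and 1 lower (25% and 3.12%, against 17.2% and 15.3% of all genes).

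Of 22 other genes of sensing and the downstream response, 5 were higher and 1 lower between genotypes under bortezomib (22.7% and 4.55%, against 17.2% and 15.3% of all genes), and 5 fell and 1 rose with bortezomib in WT HSCs (22.7% and 4.55%, against 7.56% and 7.97%). Ppp1r15a, the subunit that directs removal of the phosphate which PERK places on eIF2, averaged 95.1 ± 42.8 CPM in KO-labelled bortezomib, 48.3 ± 7.49 in KO-labelled DMSO, 20.2 ± 2.43 in WT bortezomib and 62.6 ± 8.04 in WT DMSO libraries. It fell with bortezomib in WT HSCs (-1.63 ± 0.28, edgeR adjusted p = 0.00361) and was higher between genotypes under bortezomib (2.23 ± 0.28, adjusted p = 1.35e-04), with an interaction of 2.61 ± 0.39 (adjusted p = 0.00384). Ddit3, which encodes the transcription factor CHOP, also differed in its bortezomib effect (2.01 ± 0.49, adjusted p = 0.0216). Trib3, a pseudokinase induced downstream of CHOP, fell with bortezomib in WT HSCs (-1.21 ± 0.25, adjusted p = 0.00691), where Eif2s1, the subunit that PERK phosphorylates, rose (1.30 ± 0.23, adjusted p = 0.00412). Bbc3, a pro-apoptotic gene, was higher in KO-labelled than in WT HSCs under bortezomib (1.83 ± 0.25, adjusted p = 1.83e-04).

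In the reporter experiment none of the 36 genes was called by edgeR in RFP single positive against double negative, double positive against double negative or RFP single positive against double positive (0%, 0.0065% and 0% of 15375 genes called). On simulated counts of the same design, these tests recovered only 9%, 14% and 8% of 2-fold changes in that order. The tests did not pair libraries, although the Xist share followed the replicate number, and with that number as a block none was called either. At an unadjusted p below 0.05 there were 4, 8 and 1 of the 36 in that order, beside 1160, 1315 and 209 of the 15375 genes. DESeq2 called 1 of the 36, Edem3, which was higher in double positive against double negative HSCs. The share of all genes called by DESeq2 is not given here. Edem3 had 10.4, 20.1 and 12.9 CPM in RFP single positive, 14.9, 23.9 and 23.6 in double positive and 4.47, 7.07 and 7.201 in double negative libraries. The double negative libraries were all below the rest, with a log2 fold change of 1.74 ± 0.37 for double positive against double negative (adjusted p = 0.555). Manf had 132, 117 and 156 CPM in RFP single positive, 120.4, 124 and 136 in double positive and 222, 282 and 157 in double negative libraries. Here the double negative libraries were the highest, and the log2 fold changes were -0.71 ± 0.22 for RFP single positive (adjusted p = 0.651) and -0.80 ± 0.22 for double positive (adjusted p = 0.555). Eif2ak3 had 14.7, 13.5 and 16.2 CPM in RFP single positive, 12.5, 11.2 and 15.2 in double positive and 4.42, 3.39 and 10.9 in double negative libraries, with double negative again lowest.

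By role, the median log2 fold change against double negative was -0.24 in RFP single positive and -0.30 in double positive HSCs for folding genes, -0.28 and -0.26 for translocon genes, 0.29 and 0.13 for ERAD genes and 0.58 and 0.68 for sensor genes, none with a called member. The ERAD median of 0.29 was 0.04 without RFP single positive 3 and 0.07 without double negative 1, and the translocon median of -0.26 was -0.08 without double positive 3. Both comparisons share the double negative libraries. Spearman's rho between fold change and transcript length over the 36 was 0.57 for RFP single positive and 0.49 for double positive HSCs against double negative, beside 0.38 and 0.26 over 15319 genes. Double negative 1 stood apart from the other reporter libraries on principal component 1, double positive 2 on component 2 and double positive 1 on component 3. Hspa5 spread more among double negative libraries (431, 961 and 594 CPM) than among RFP single positive (404, 469.6 and 629 CPM) or double positive ones (378, 349 and 507 CPM).

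**Figure D5:**
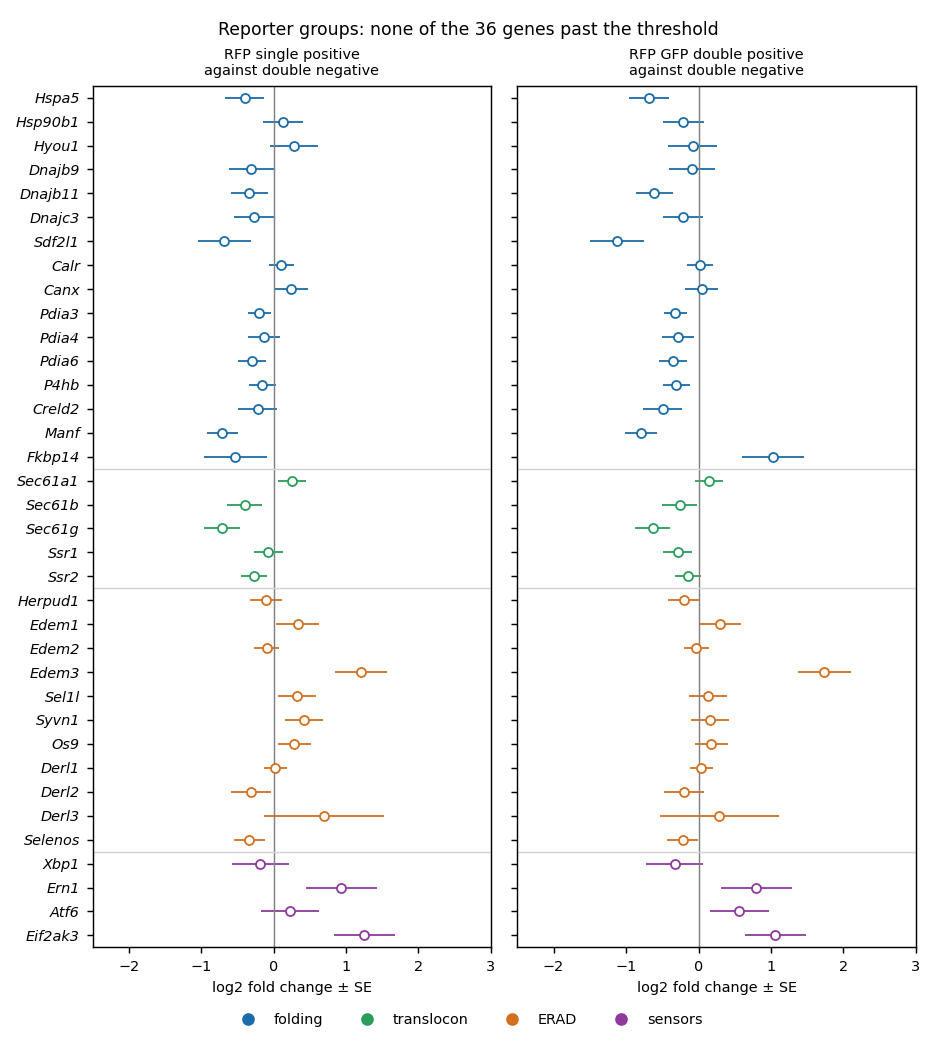
Log2 fold changes with SE of the 36 genes in RFP single positive (left) and double positive HSCs (right) against double negative HSCs, coloured by role, with open points because no adjusted p was below 0.05. Edem3 reaches 1.74 in double positive HSCs, and Manf and Sdf2l1 lie below 0 in both panels.

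Exons of 12 of the 36 genes overlap those of another annotated gene, and whether counting used strand is not given in the sources used here. Those of more than 50 bases on the opposite strand are 549 bases of Sec61a1 with Gm44170, 415 bases of Hsp90b1 with 1810014B01Rik, 166 bases of Manf with 4930524O07Rik and 146 with Dcaf1, 231 bases of Derl2 with Mis12, 239 bases of Ssr2 with Gm10704, 208 bases of Fkbp14 with Plekha8, 91 bases of Syvn1 with Mrpl49 and 485 bases of Eif2ak3 with Gm43292. Reads from these stretches cannot be told apart between the partners if counting ignored strand.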

How the data were processed

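The authors deposited raw counts per gene for 21 SMART-seq2 libraries, one column each, with 0 columns lacking a sample. Per the labels' protocols, RNA was taken with an RNeasy Plus Micro kit. Per the submitters' processing notes, Bowtie 1.0.0, STAR 2.6.1 and HTSeq 0.7.1 were used, and the builds GRCm38.p4 and GRCh38 are named without their roles. The sources used here do not give the annotation release or the strand setting. Gene coordinates, lengths and overlaps come from GENCODE on GRCm38. Groups follow the sample titles, and no library was left out.

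Counts were tested in R 4.3.3 with edgeR 4.0.16 (filterByExpr, TMM, quasi-likelihood F test, 1 mean per group), in 1 fit of the 12 treatment libraries (16149 genes) and 1 of the 9 reporter libraries (15375 genes), over 8 comparisons with Benjamini-Hochberg adjustment over all genes of a comparison and a threshold of 0.05. CPM values use TMM-scaled library sizes, and CPM per kb divides by the union of exons. SE is the absolute log2 fold change over the square root of F. On simulated counts of the same design, the interaction test (15557 genes) recovered 7% of 2-fold and 50% of 4-fold changes with 2 false calls, and the test of bortezomib in KO-labelled HSCs (15598 genes) 41% and 77% with 8 false calls. The test between genotypes under bortezomib recovered 27% and 62%. The simulation changed fewer genes than edgeR called in the data for these tests (1462, 586 and 5234 in that order). With fewer true changes the adjustment is stricter, so these rates may understate recovery in the data. The reporter tests recovered 8% to 14% of 2-fold and 51% to 57% of 4-fold changes. Counting floors cover counting error only.

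The 36 genes, their roles, the 121 other ER genes, the marker lists and the alternatives were chosen with earlier results of these data known. Values per library are given for genes called in at least 2 comparisons and for Hspa5, Hsp90b1, Xbp1, Ern1, Atf6 and Eif2ak3, and other ER genes are the up to 4 with the smallest p per comparison. Values of a few further genes that missed the threshold, such as Edem3, Manf and Eif2ak3 in the reporter experiment, were chosen after their values were seen. Alternatives were relative log expression factors, DESeq2 1.42.0, limma 3.58.1 voom with quality weights, no filter, a fit of only the 6 libraries being compared, the replicate number as block, the Xist share as a covariate, leaving out each library or the 3 libraries apart together, and offsets from splines (4 degrees of freedom) on transcript length and GC content, which 99.6% of tested genes have. Figures were drawn with Python 3.11.15 and matplotlib 3.10.9.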

Additional observations from a re-analysis of the deposited data

Results flagged for a closer look

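The bortezomib effect differed between KO-labelled and WT HSCs by the interaction test for 3 of the 36 genes (8.33%, against 9.05% of all genes), on the log2 scale by 1.21 for Syvn1, by -1.40 for Sec61b and by 2.19 for Fkbp14. The Syvn1 effect was the higher one in KO-labelled HSCs and the Sec61b effect the lower one. Fkbp14 was measured at 1.44 to 8.49 CPM in the treatment libraries.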

How the results depend on the processing

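No called gene changed sign under any alternative, while 15 medians over the members or a role moved by more than their spread, in 25 combinations of median and alternative, 8 of them with a change of sign. The ERAD median in WT bortezomib against WT DMSO was 0.14, against -0.24 with voom, -0.10 with the replicate block, -0.15 without the 3 libraries apart and -0.16 without WT bortezomib 3. The ERAD median in KO-labelled DMSO against WT DMSO was -0.04, against 0.17 with the Xist share, and the folding median of bortezomib in KO-labelled HSCs was 0.11, against -0.06 without KO-labelled DMSO 3. The translocon median in RFP single positive against double positive was -0.08, against 0.07 without RFP single positive 2 and 0.09 without double positive 1. In WT bortezomib against WT DMSO the main count of 12 calls became 21 with voom and 18 with length and GC offsets (16 higher and 2 lower, against 10 and 2), and 3 to 17 when each library was left out (3 without WT bortezomib 1 or WT DMSO 2). In KO-labelled bortezomib against KO-labelled DMSO the 3 calls became 6 with voom, 1 with the Xist share as a covariate, 6 without the 3 libraries apart, 5 with length and GC offsets and 0 with only the libraries of the groups compared, and 0 to 5 when each library was left out (0 without KO-labelled bortezomib 2 or KO-labelled DMSO 1 or 3). In KO-labelled DMSO against WT DMSO, 0 became 3 with DESeq2, 3 with voom and 2 with no filter, and stayed at 0 when each library was left out. Between genotypes under bortezomib the 19 calls ranged from 16 to 20 over the libraries left out, with 14 of the 19 genes kept under all 21 alternatives. The interaction's 3 calls became 8 with DESeq2, 15 with voom, 7 with no filter, 0 with the Xist share, 12 without the 3 libraries apart and 7 with length and GC offsets, and 0 to 9 when each library was left out. In the reporter experiment, double positive against double negative gave 1 call with DESeq2, and the 3 comparisons gave 0 calls in every fit that left out a library. The causes of these shifts were not tested. For most of these alternatives the share of all genes called is not given here, so the counts have no background beside them. Correlations of same-numbered deviations were -0.0282 to 0.0995 in the treatment and -0.0143 to 0.165 in the reporter experiment. In reporter replicate 1 they were 0.117 to 0.165, above those with other numbers (at most -0.0213), but this did not hold throughout replicate 2. These correlations alone do not show whether replicate numbers pair the libraries. In the reporter experiment the Xist share followed the replicate number. It was 0%, 0% and 10.2% in replicate 1 of RFP single positive, double positive and double negative HSCs. In the same order it was 99.9%, 97.4% and 88.1% in replicate 2, and 5.45%, 0.782% and 0% in replicate 3. The main tests did not pair libraries. With the replicate number as a block the counts were 14 (bortezomib in WT), 4 (bortezomib in KO-labelled), 0 (genotype in DMSO), 21 (genotype under bortezomib), 4 (interaction, 1 higher and 3 lower, 2 of them shared with the 3 reported, and Fkbp14 at adjusted p = 0.0511) and 0 in the reporter comparisons. Over all genes, length and GC offsets changed the calls between genotypes under bortezomib to 1934 higher and 2976 lower, against 2770 higher and 2464 lower without them. Values near the floor of 3 counts, such as that of Derl3 in its lowest treatment library, were beyond what this depth can compare.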
